A study of Mus musculus with 9 samples.

Results

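The core p53 target genes are 10 genes taken by name (Cdkn1a, Ccng1, Mdm2, Bax, Bbc3, Trp53inp1, Sesn2, Phlda3, Eda2r and Zmat3). The rule sets no threshold on a measured value, but the list was drawn up with earlier results of these data known. Of these 10 genes, 9 had a probe set that names only that gene, among 22180 genes on the array. Bax had none and was not analysed here, and neither was Trp53, the gene deleted in the model, so the deletion could not be read from its own transcript. p53 is a transcription factor that is held low in unstressed cells and is stabilised by DNA damage, oncogene activity and other stress. It then binds a short DNA element near its target genes and switches on arrest of the cell cycle, apoptosis, repair and its own negative regulators.

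RNA from flash frozen lesions was hybridised to 9 Affymetrix MoGene-2_0-st arrays, 3 biological replicates in each of 3 groups. P3 high DOX and P3 low DOX tumors have the genotype hPDGF-A;hPDGFRα;p53lox and came from mice on 600 and 25 mg/kg DOX (doxycycline), as labelled. The study's text gives a somewhat higher dose for the high diet than the labels do. In P3 mice, a lentivirus with a DOX-inducible hPDGF-A and a constitutive Cre was injected in the striatum of adult animals. Cre switches on a CAG-driven hPDGFRα and deletes p53 in the infected cells, while the host cells that a bulk tumor also holds keep p53. The OPC lesions (oligodendrocyte precursor cells, 600 mg/kg DOX) are labelled hPDGFRα;p53. A supplementary figure legend of the study instead describes injection of the same lentivirus into p53 2lox mice, with no receptor transgene named. It also reports that the lesion cells keep p53 expression. These sources differ on the receptor, so whether it differs between P3 GBM and OPC lesions is not settled. If it does, p53 loss and the receptor transgene cannot be told apart in a comparison of these groups. The legend also describes the lesions as proliferating OPCs that are no tumors, so tumor state cannot be told apart from p53 loss either. In P3 low DOX the diet differs as well. Animal ages beyond adult were not given in the labels.

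The values are log2 signals, so a difference of 1 is a doubling. A gene was called when its limma p, adjusted by Benjamini-Hochberg over all 22180 genes, was under 0.05. The mean of the 8 OPC markers lay between 9.48 and 11.15 in P3 high DOX, between 9.86 and 10.87 in P3 low DOX and between 9.53 and 10.70 in OPC lesions, and Olig2, a transcription factor of this lineage, was at 10.28 or higher on every array. The neuron markers (7 of 8 measured) averaged 6.81 to 11.44 in P3 high DOX, 5.40 to 6.63 in P3 low DOX and 6.19 to 11.38 in OPC lesions, with neuron signal on OPC lesion arrays too. The 8 microglia and macrophage markers averaged 6.46 to 7.62 in P3 high DOX, 8.02 to 9.39 in P3 low DOX and 7.09 to 8.51 in OPC lesions. P3 high DOX replicate 2 stood apart in its 6 choroid plexus markers, which averaged 7.88 there and 4.14 to 4.38 on the other 8 arrays (Ttr 12.46, against 4.68 to 5.32). It also had the highest neuron mean of the 9 arrays (11.44, against 8.56 and 6.81 in its group). Its OPC mean was the lowest (9.48, against 11.07 and 11.15 in its group). So was its mean of the proliferation markers (7 of 8 measured), at 6.85 against 8.24 and 9.0. These are bulk lesions, in which fewer cells of a type and less RNA per cell cannot be told apart.

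The DNA element that p53 binds is built from 2 adjoining copies of a 10-base unit. RefSeq (GRCm38.p6) gave the promoter, from 250 bases before to 50 after an annotated start, for 8 of the 10 members (11 windows). Each window was searched on the gene's strand for the p53 consensus element, with no spacer and at most 3 mismatches. The consensus reads alike on both strands. The C that opens and the G that closes the 4-base core of each unit had to be exact, so mismatches were allowed at the other bases only. A match was found in 3 of the 8 members with a window (37.5%), against 441 of 27025 genes (1.63%), or in 3 of 11 windows (27.3%), against 453 of all 32851 windows of this length (1.38%). The 3 members are shown with Aen, a wider target described below that was picked after its values were seen. In the wider pathway list, 7 of 55 genes with a window had a match (12.7%). Rps27l had 1 mismatch and Trp73 had 2, while Aen, Tigar, Gpx1, Sesn1 and Trp53 had 3. Rps27l, the closest of these, differed by -0.23 (SE 0.28) in P3 GBM against OPC lesion, and its groups overlapped. The capitals mark the 4-base core of each unit.
Ccng1: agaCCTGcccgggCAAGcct
Cdkn1a: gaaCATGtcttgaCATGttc
Bbc3: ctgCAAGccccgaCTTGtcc
Aen: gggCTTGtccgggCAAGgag

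The Ccng1 match is at chr11:40755462-40755481 (minus strand, -195 to -176 from the start) and has 1 mismatch. The Cdkn1a match, at chr17:29090928-29090947 (plus strand, -51 to -32 from the annotated start whose window held it), also has 1 mismatch. Whether that is the gene's main start was not examined. At most 1 mismatch was found in 22 of 27025 genes (0.0814%). Bbc3 (chr7:16309486-16309505, plus strand, -97 to -78) and Aen (chr7:78895937-78895956, plus strand, -121 to -102 from the more downstream of its annotated starts) have 3 mismatches each. The surroundings of the closest matches among the members follow as 120 bases each, with the 20-base match in capitals. They are chr11:40755412-40755531 (minus strand) for Ccng1 and chr17:29090859-29090978 (plus strand) for Cdkn1a.
Ccng1: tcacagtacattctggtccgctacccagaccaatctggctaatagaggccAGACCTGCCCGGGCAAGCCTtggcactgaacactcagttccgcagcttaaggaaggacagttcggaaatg
Cdkn1a: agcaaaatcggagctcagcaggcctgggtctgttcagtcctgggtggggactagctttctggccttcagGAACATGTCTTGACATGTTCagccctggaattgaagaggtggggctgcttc
No match in a window says only that no stretch in it met these rules. Elements with a changed core C or G, in introns or farther upstream were outside the search.

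In P3 GBM (the mean of both doses) all 9 measured members had a lower mean than in OPC lesions, but no member passed the test. None of the 22180 genes was called in this comparison (0.0%), and 475 were lower (2.14%) and 380 higher at an unadjusted p under 0.05. The members' median difference was -0.43, against -0.01 over all genes, of which 51.2% were below 0. At an unadjusted p under 0.05, 3 of the 9 members were lower (Ccng1, Eda2r and Zmat3). All 6 P3 arrays lay below all 3 OPC lesion arrays for 1 member, Ccng1, and for 0.784% of all genes.

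**Figure D1:**
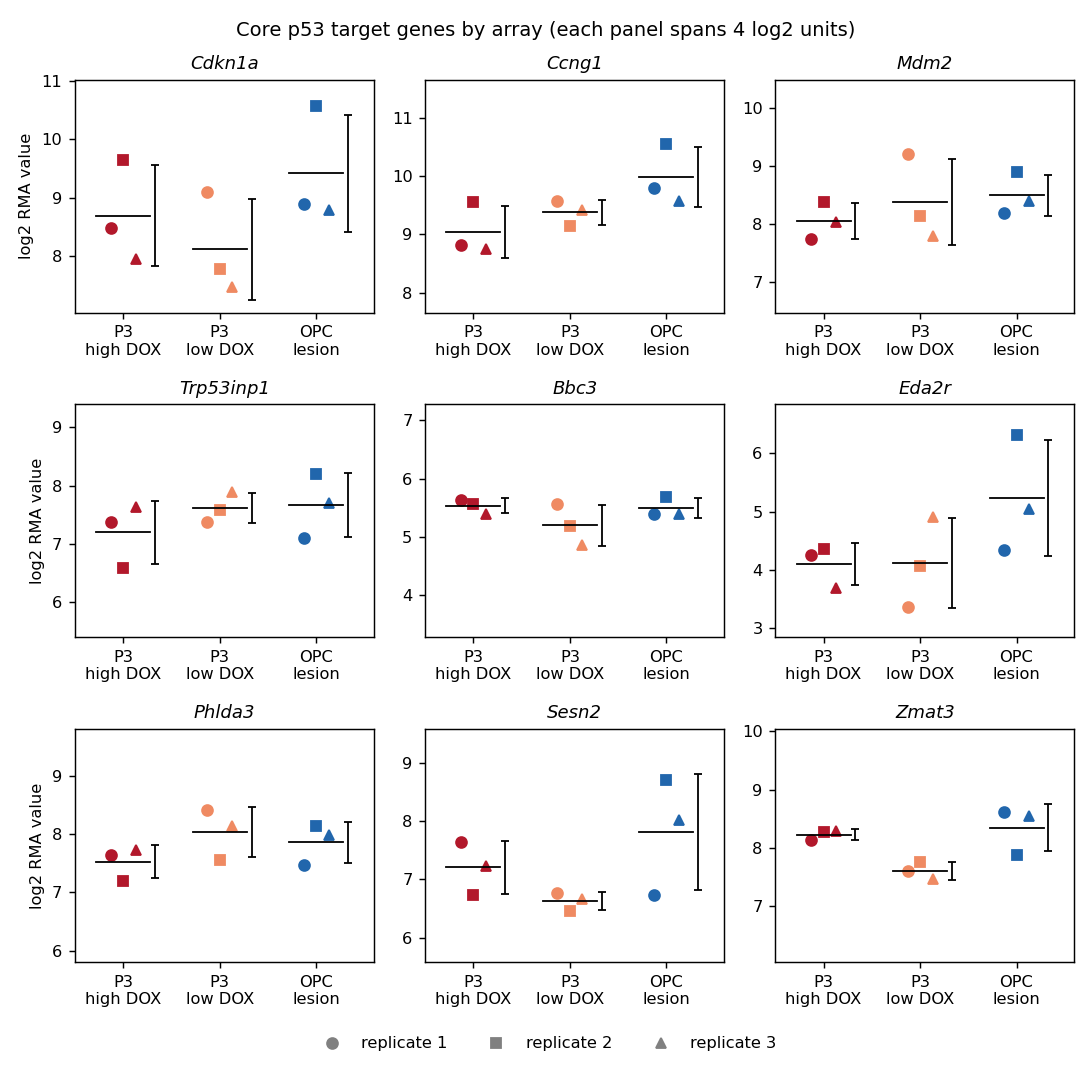
Log2 value of each measured core p53 target (y axis, 4 log2 units in every panel) in P3 high DOX, P3 low DOX and OPC lesion arrays (x axis), with symbols for the replicates, a line at the group mean and a bar of 1 SD on either side (n = 3). OPC lesion replicate 2, the blue square, is the highest of the 9 arrays for 6 of the 9 genes.

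Cdkn1a encodes p21, the CDK inhibitor through which p53 stops the cell cycle. Its values were 8.48, 9.64 and 7.95 in P3 high DOX, 9.10, 7.78 and 7.47 in P3 low DOX, and 8.89, 10.58 and 8.78 in OPC lesions. The highest value was in OPC lesion replicate 2, and 2 P3 arrays lay above both other OPC lesions. P3 GBM minus OPC lesion was -1.02 (SE 0.571, 95% interval -2.34 to 0.31; 0.494 of the OPC lesion level; limma adjusted p = 0.974). Cdkn1a had the widest spread of the members over the arrays, with an SD of 0.975.

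Ccng1 encodes cyclin G1, a p53 target that works with protein phosphatase 2A on Mdm2. It had 8.82, 9.55 and 8.75 in P3 high DOX, 9.58, 9.14 and 9.41 in P3 low DOX, and 9.80, 10.56 and 9.58 in OPC lesions. The groups did not overlap, by a gap of 0.000918 log2 units between P3 low DOX replicate 1 and OPC lesion replicate 3. The difference was -0.77 (SE 0.264, interval -1.38 to -0.16; 0.585 of the OPC lesion level; limma unadjusted p = 0.0195, adjusted p = 0.974). Of the members, Ccng1 was the only one whose unadjusted p stayed under 0.05 under every alternative tried but the one without OPC lesion replicate 2.

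Mdm2 encodes the ubiquitin ligase that marks p53 for degradation and is itself induced by p53. Its values were 7.75, 8.38 and 8.04 in P3 high DOX, 9.21, 8.14 and 7.79 in P3 low DOX, and 8.20, 8.89 and 8.40 in OPC lesions. The highest value came from P3 low DOX replicate 1, above every OPC lesion. The difference of -0.28 (SE 0.322, interval -1.03 to 0.46) was within the spread between replicates.

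Among the death genes, Bbc3 encodes PUMA, a BH3-only protein that frees BAX and BAK to open the mitochondrion. Bbc3 had 5.64, 5.57 and 5.39 in P3 high DOX, 5.56, 5.18 and 4.86 in P3 low DOX, and 5.39, 5.69 and 5.39 in OPC lesions. The groups overlapped and the difference was -0.12 (SE 0.164, interval -0.50 to 0.26). Trp53inp1, a p53-induced nuclear protein that acts in apoptosis and autophagy, had 7.37, 6.59 and 7.63 in P3 high DOX, 7.38, 7.58 and 7.89 in P3 low DOX, and 7.10, 8.20 and 7.71 in OPC lesions. OPC lesions held its highest value and, apart from P3 high DOX replicate 2, also its lowest, and the difference was -0.26 (SE 0.298, interval -0.95 to 0.43).

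Eda2r encodes the ectodysplasin receptor XEDAR of the TNF receptor family. It had 4.26, 4.36 and 3.68 in P3 high DOX, 3.36, 4.07 and 4.91 in P3 low DOX, and 4.34, 6.32 and 5.04 in OPC lesions. Both highest values were in OPC lesions, while OPC lesion replicate 1 lay within the P3 range. The difference was -1.13 (SE 0.476, interval -2.23 to -0.02; limma unadjusted p = 0.0461, adjusted p = 0.974). Its signal was dim: its mean lay at or above 29.7% of the genes in P3 high DOX, 28.9% in P3 low DOX and 45.2% in OPC lesions, and the files give no detection call, so a level above background is not shown. Phlda3, which competes with AKT for membrane lipids and so restrains it, had 7.65, 7.20 and 7.73 in P3 high DOX, 8.41, 7.56 and 8.14 in P3 low DOX, and 7.47, 8.14 and 7.98 in OPC lesions. The 3 groups overlapped, and the difference of -0.08 (SE 0.236, interval -0.63 to 0.46; adjusted p = 0.988 with limma) was the smallest in size of the 9.

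Sesn2 encodes sestrin 2, a stress protein that restrains mTORC1 and is also induced by ATF4. It had 7.65, 6.74 and 7.23 in P3 high DOX, 6.76, 6.46 and 6.67 in P3 low DOX, and 6.73, 8.70 and 8.02 in OPC lesions. OPC lesion replicate 1 lay among the P3 arrays, and both other OPC lesions lay above all of them. The difference was -0.90 (SE 0.403, interval -1.83 to 0.04; 0.537 of the OPC lesion level; limma adjusted p = 0.974). Zmat3, a zinc finger RNA-binding protein that regulates splicing and RNA stability, had 8.13, 8.27 and 8.29 in P3 high DOX, 7.60, 7.76 and 7.46 in P3 low DOX, and 8.62, 7.88 and 8.55 in OPC lesions. Here OPC lesion replicate 2 was the lowest of its group, within the P3 range, and the difference was -0.43 (SE 0.173, interval -0.83 to -0.03; limma unadjusted p = 0.0383, adjusted p = 0.974).

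OPC lesion replicate 2 was the highest of the 9 arrays for 6 of 9 members (Cdkn1a, Ccng1, Bbc3, Trp53inp1, Sesn2 and Eda2r), whereas 9.82% of all genes were highest there. The median member value, centred on each gene's mean over the arrays, was 0.70 in this lesion and -0.52 to 0.17 in the other 8 arrays. Without it, 7 of 9 members were below 0 in P3 GBM (48.3% of all genes), and 1 member, Zmat3, was lower at an unadjusted p under 0.05 (3.44% of all genes). Cdkn1a then differed by -0.43, Ccng1 by -0.48, Sesn2 by -0.45 and Eda2r by -0.58, while Zmat3 differed by -0.66 (SE 0.121, adjusted p = 0.601 in limma). That array also differed from both other OPC lesions in its makeup: neuron markers averaged 6.19 there against 11.38 and 9.71 in the other lesions, microglia and macrophage markers 8.51 against 7.24 and 7.09, myelinating oligodendrocyte markers (5 of 6 measured) 9.45 against 8.51 and 7.52, T cell markers (4 of 5 measured) 5.02 against 4.07 and 4.07, and the 6 astrocyte markers 9.55 against 9.07 and 8.36. All 6 astrocyte markers were below 0 in P3 GBM against OPC lesion (median -0.48). Their mean was highest in OPC lesion replicate 2 and next in P3 high DOX replicate 2 (9.50), which are also the 2 highest arrays of Cdkn1a. OPC lesion replicate 1 differed from the other lesions too. Its OPC markers averaged 9.53 against 10.55 and 10.7 in replicates 2 and 3, and its proliferation markers 7.02 against 8.58 and 8.79. The same lesion was the lowest of its group for Sesn2. The part of these cell types and of proliferation in the members' values was not tested. Without P3 high DOX replicate 2, 8 of 9 members were below 0 in P3 GBM, Cdkn1a differed by -1.25, and Ccng1 was the 1 member lower at an unadjusted p under 0.05 (3.43% of all genes).

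**Figure D2:**
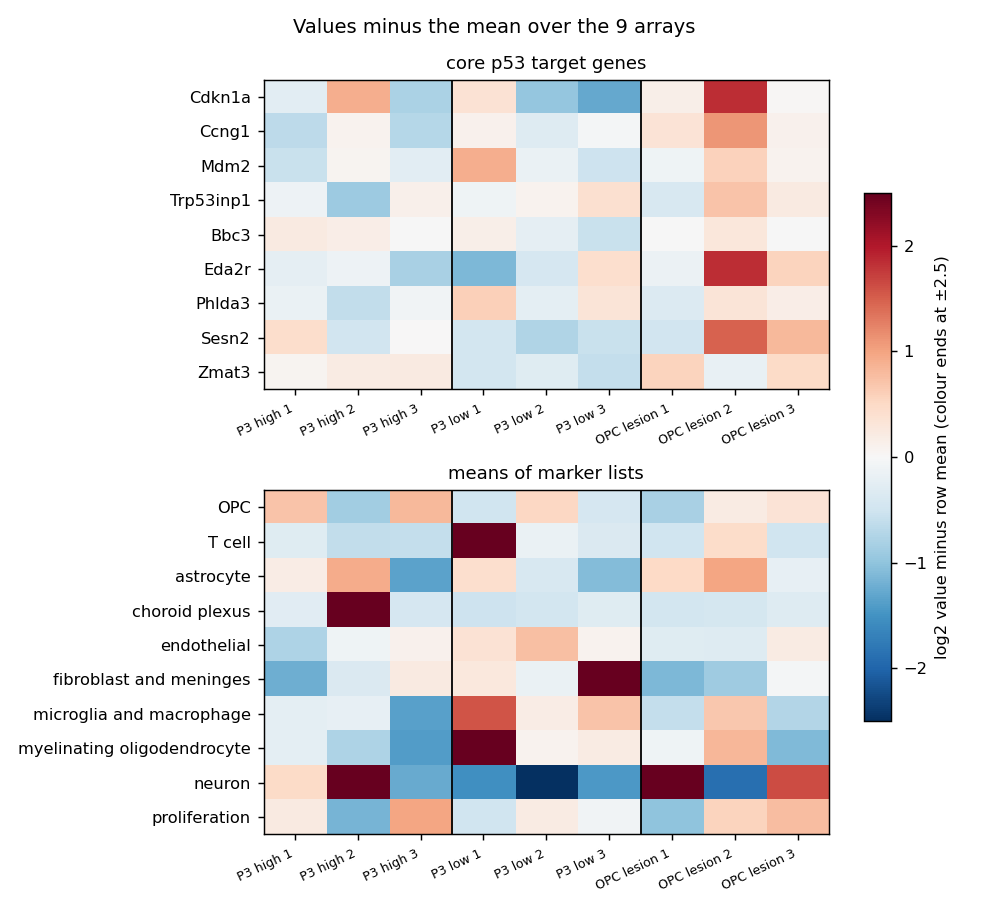
Log2 value minus its mean over the 9 arrays (colour, ending at 2.5 either way) for the core p53 targets (upper panel) and for the means of cell type marker lists (lower panel), with 1 column per array. The column of OPC lesion replicate 2 is high for most members, with a median of 0.70, and low for the neuron list.

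The 2 doses were each set against the OPC lesions, the high dose on the same diet as the lesions. These comparisons share the OPC lesion arrays, so their values are given side by side. In P3 high DOX, 8 of 9 members had a lower mean than in OPC lesions (51.8% of all genes), with a median of -0.47. Ccng1 was lower at an unadjusted p under 0.05 (-0.94, SE 0.305; limma unadjusted p = 0.0153, adjusted p = 1.0), as were 0.726% of all genes, and it was also the 1 member whose P3 high DOX arrays all lay below the OPC lesions (3.02% of all genes). In P3 low DOX, 8 of 9 members were below 0 (50.7% of all genes), with a median of -0.60. Sesn2 was lower at an unadjusted p under 0.05 (-1.18, SE 0.465; limma unadjusted p = 0.0349, adjusted p = 0.491), and so was Zmat3 (-0.74, SE 0.200; limma unadjusted p = 0.00608, adjusted p = 0.436), as were 5.41% of all genes. Ccng1 and Zmat3 were the 2 members whose P3 low DOX arrays all lay below the OPC lesions (7.92% of all genes). No gene of the array was called in either comparison (0.0% in each), against 360 genes at an unadjusted p under 0.05 in P3 high DOX and 2178 in P3 low DOX.

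Cdkn1a differed from OPC lesions by -0.73 in P3 high DOX and by -1.30 in P3 low DOX, with an SE of 0.660 for each. Eda2r differed by -1.13 in P3 high DOX and -1.12 in P3 low DOX, and Sesn2 by -0.61 in P3 high DOX and -1.18 in P3 low DOX. Zmat3 differed by only -0.12 in P3 high DOX (SE 0.200, interval -0.58 to 0.35). The members above 0 were Bbc3 in P3 high DOX (0.04, SE 0.189) and Phlda3 in P3 low DOX (0.17, SE 0.272).

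The study asked whether the PDGF-A dose alters the tumors, which P3 high DOX against P3 low DOX addresses within 1 genotype. It reports that a smaller share of low DOX than of high DOX mice died of brain tumors, and later. Time from injection to sampling may thus differ between the doses and could not be told apart from dose here. No member was called, and no gene on the array was (0.0%), with 2248 genes at an unadjusted p under 0.05. The members split into 5 below and 4 above 0, with a median of -0.01, and 50.0% of all genes were below 0. At an unadjusted p under 0.05, 0 members were lower (4.89% of all genes) and 1, Zmat3, was higher (5.25% of all genes). No member had its P3 high DOX arrays all below the P3 low DOX arrays (7.76% of all genes), and Zmat3 was the 1 member with them all above (8.23% of all genes).

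Zmat3 differed by 0.63 between the doses (SE 0.200, interval 0.16 to 1.09; 1.54-fold; limma unadjusted p = 0.0143, adjusted p = 0.429). Its 3 P3 high DOX values spanned 8.13 to 8.29 and its 3 P3 low DOX values 7.46 to 7.76, a gap of 0.374. Leaving out any single array gave differences of 0.55 to 0.70, and the unadjusted p was under 0.05 under each alternative. Marker lists differed between the doses too. The medians of their genes were 2.41 for neurons (7 of 7 above 0) and 1.0 for choroid plexus (6 of 6 above 0), a list that was high in P3 high DOX replicate 2 alone. They were -1.79 for myelinating oligodendrocytes (5 of 5 below 0), -1.49 for microglia and macrophages (7 of 8 below 0), -1.32 for T cells (4 of 4 below 0) and -1.20 for fibroblasts and meninges (5 of 5 below 0). The P3 low DOX tumors and OPC lesion replicate 2 held both the lowest Zmat3 values (7.46 to 7.88) and the lowest neuron means (5.40 to 6.63) of the 9 arrays. The part of the cells of these lists in the Zmat3 value was not tested.

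The intervals of the other members between the doses were wide. Cdkn1a differed by 0.57 (SE 0.660, interval -0.95 to 2.10; 0.10 without P3 high DOX replicate 2) and Sesn2 by 0.58 (SE 0.465, interval -0.50 to 1.65). Bbc3 differed by 0.33 (SE 0.189, interval -0.11 to 0.77), and Eda2r by -0.01 (SE 0.550, interval -1.28 to 1.26). Below 0 lay also Phlda3 (-0.51, SE 0.272), Trp53inp1 (-0.42, SE 0.344), Ccng1 (-0.34, SE 0.305) and Mdm2 (-0.32, SE 0.372). The interval of Eda2r held both a doubling and a halving, and those of Cdkn1a and Sesn2 held a doubling. The intervals of Ccng1 (down to -1.04), Mdm2 (-1.18), Trp53inp1 (-1.22) and Phlda3 (-1.14) held a halving. Differences of that size were thus not excluded in these genes with 3 arrays a group.

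**Figure D3:**
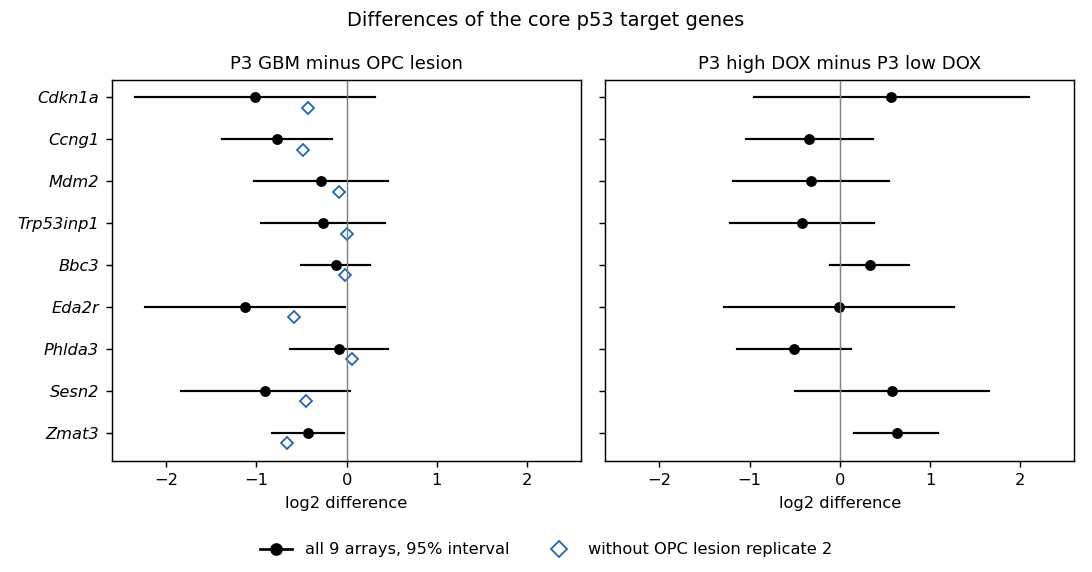
Log2 difference of each core p53 target (x axis) in P3 GBM minus OPC lesion (left) and in P3 high DOX minus P3 low DOX (right), as points with 95% intervals from the limma fit. Open diamonds give the left-hand differences without OPC lesion replicate 2, where 7 of 9 genes stay below 0.

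A wider list of the p53 pathway set these genes in context. It held 54 further targets, of which 49 were measured, in 6 lists by role, and 13 p53 family members and upstream regulators, of which 12 were measured. No gene of either was called in any of the 4 comparisons. In P3 GBM against OPC lesion, 31 of the 49 targets were below 0 (63.3%, against 51.2% of all genes) and 18 above, with a median of -0.07. Without OPC lesion replicate 2 the split was 22 below and 27 above. At an unadjusted p under 0.05, 3 of the 49 were lower (Psrc1, Ei24 and Aen; 2.14% of all genes) and 0 higher (1.71% of all genes). Without OPC lesion replicate 2, 3 were lower (3.44% of all genes) and 2 higher (2.94% of all genes).

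Of the cell cycle arrest list (6 of 7 measured), 3 were below and 3 above 0. Psrc1, a microtubule-associated protein of the spindle, had 5.53, 5.33 and 5.91 in P3 high DOX, 4.85, 5.13 and 5.04 in P3 low DOX, and 5.72, 6.45 and 6.13 in OPC lesions. Only P3 high DOX replicate 3 reached the OPC lesion range, and the difference was -0.80 (SE 0.192, limma unadjusted p = 0.00322, adjusted p = 0.974). Plk2, a polo-like kinase that is also induced by neuronal activity, had 9.90, 9.84 and 9.71 in P3 high DOX, 7.45, 8.65 and 8.0 in P3 low DOX, and 10.25, 8.78 and 10.02 in OPC lesions. It separated the doses, with P3 high DOX 1.78 above P3 low DOX (SE 0.419, limma unadjusted p = 0.00292, adjusted p = 0.376), and its 4 lowest arrays (the P3 low DOX tumors and OPC lesion replicate 2) were also the 4 with the lowest neuron list, whose part was not tested. Ptprv, a receptor tyrosine phosphatase, differed by 0.30 (SE 0.411) between P3 GBM and OPC lesion. Its signal was dim (at or above 35.6% of the genes in P3 high DOX, 38.4% in P3 low DOX and 33.8% in OPC lesions), and a level above background is not shown.

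Of the 9 apoptosis and death receptor genes, all measured, 6 were below and 3 above 0. Ei24, an endoplasmic reticulum protein first known as p53-induced gene PIG8, had 9.34, 9.18 and 8.96 in P3 high DOX, 9.15, 9.21 and 9.0 in P3 low DOX, and 9.51, 9.39 and 9.46 in OPC lesions. All 6 P3 arrays lay below the OPC lesions, by a gap of 0.0483, and the difference was -0.31 (SE 0.110, limma unadjusted p = 0.0217). Aen, an apoptosis-enhancing nuclease named here after its values were seen, had 5.99, 6.21 and 6.21 in P3 high DOX, 6.17, 6.21 and 5.93 in P3 low DOX, and 6.23, 6.65 and 6.38 in OPC lesions. It too did not overlap, by a gap of 0.0203, with a difference of -0.30 (SE 0.127, limma unadjusted p = 0.0457). Ei24 and Aen were the 2 of the 49 wider targets with all P3 arrays below the OPC lesions, against 0.784% of all genes. Tnfrsf10b, the mouse TRAIL receptor, had 4.21, 4.45 and 4.69 in P3 high DOX, 4.64, 5.0 and 5.59 in P3 low DOX, and 4.47, 6.85 and 4.54 in OPC lesions. Its difference of -0.52 (SE 0.525) rested on OPC lesion replicate 2 and was 0.26 without that array. The Tnfrsf10b signal was dim, at or above 35.3% of the genes in P3 high DOX, 43.5% in P3 low DOX and 45.8% in OPC lesions. A level above background is not shown for it. Pidd1, the scaffold of the PIDDosome, differed by -0.30 (SE 0.284).

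In P3 GBM against OPC lesion, the remaining roles held no target with an unadjusted p under 0.05. DNA repair and nucleotide supply (6 of 7 measured) had 4 below and 2 above 0, where the endonuclease Ercc5 differed by -0.26 (SE 0.179), the damage sensor Xpc by -0.07 (SE 0.152) and the translesion polymerase Polk by 0.12 (SE 0.163). Metabolism and redox (10 of 11 measured) had 7 below and 3 above 0. There Ddit4, an inhibitor of mTORC1, had 7.68, 7.08 and 8.87 in P3 high DOX, 7.62, 6.88 and 7.21 in P3 low DOX, and 7.49, 8.65 and 8.58 in OPC lesions, and differed by -0.68 (SE 0.426). Like Sesn2, another brake on mTORC1, Ddit4 was high in OPC lesion replicates 2 and 3 and not in replicate 1. The highest Ddit4 value, however, was in P3 high DOX replicate 3 (8.87), where Sesn2 had 7.23, below both of those lesions. Tigar, a fructose bisphosphatase, differed by -0.37 (SE 0.309), and Pank1, a kinase of coenzyme A synthesis, by -0.33 (SE 0.335).

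Of the 6 genes listed for feedback on p53, all measured, 3 were below and 3 above 0. Zfp385a, which binds p53 and steers its choice of targets, differed by -0.51 (SE 0.282), the ubiquitin ligase Rchy1 by -0.23 (SE 0.154) and Mdm4, the partner of Mdm2, by 0.13 (SE 0.144). Of the membrane, secreted and other targets (12 of 14 measured), 8 were below and 4 above 0. Cd82, a tetraspanin that immune cells also carry, had 5.82, 6.35 and 5.92 in P3 high DOX, 7.98, 6.75 and 7.07 in P3 low DOX, and 5.47, 6.73 and 5.51 in OPC lesions. Its difference of 0.75 (SE 0.364) was thus carried by P3 low DOX, the group with the highest microglia and macrophage markers, and their part was not tested. The long noncoding RNA Trp53cor1 (lincRNA-p21), which lies next to Cdkn1a, differed by -0.48 (SE 0.428) and Abhd4 by -0.28 (SE 0.452). Without OPC lesion replicate 2 these became 0.01 for Trp53cor1 and 0.02 for Abhd4.

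**Figure D4:**
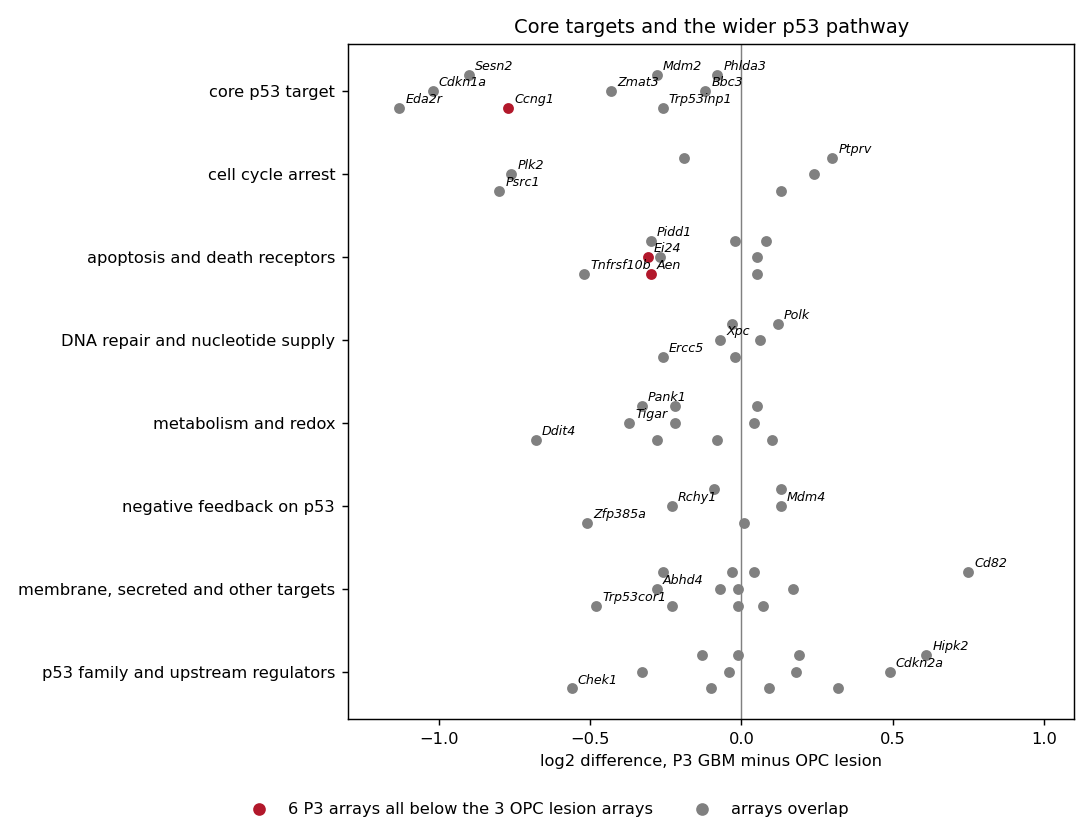
Log2 difference, P3 GBM minus OPC lesion (x axis), of each measured core target and wider pathway gene (points) by role list (rows, points spread vertically for legibility). Red points (Ccng1, Ei24 and Aen) mark genes whose 6 P3 arrays all lie below the 3 OPC lesion arrays, as holds for 0.784% of all genes. The core targets run from -1.13 to -0.08.

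Between the doses, 28 of the 49 wider targets were below 0 and 21 above, with a median of -0.08. The P3 high DOX arrays lay all below the P3 low DOX arrays for 9 of them and all above for 3, against 7.76% and 8.23% of all genes. The 9 were Fas, Pmaip1, Polk, Gpx1, Dcxr, Ninj1, Cd82, Tap1 and Def6, and the 3 were Plk2, Psrc1 and Cpt1c. Polk, Cd82, Plk2 and Psrc1 are named by their rank in P3 GBM against OPC lesion, and the others were chosen after their values were seen. In P3 high DOX against OPC lesion 36 of 49 were below 0 (51.8% of all genes), and in P3 low DOX against OPC lesion 24 of 49 (50.7% of all genes).

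By the root mean square difference of centred values over the 9 arrays, the genes outside the members whose pattern was closest to that of Cdkn1a, the member of the widest spread, were Cybrd1 (0.400), an iron-reducing cytochrome, Trpc4 (0.421), a cation channel, and Ezr (0.458), the membrane-to-actin linker ezrin. Cybrd1 had 5.68, 6.70 and 4.82 in P3 high DOX, 5.68, 4.95 and 5.06 in P3 low DOX, and 5.22, 7.72 and 5.15 in OPC lesions. As with Cdkn1a, its highest array was OPC lesion replicate 2 and its next P3 high DOX replicate 2, the array with the choroid plexus markers. Cybrd1 was picked by its pattern over these same arrays, so this likeness is no separate result.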

How the data were processed

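Total RNA of 9 lesions was hybridised to MoGene-2_0-st arrays (Affymetrix). The authors normalised the arrays by the robust multichip average (RMA) in R and Bioconductor and deposited log2 values. Whether their subsequent SVA step is already in these values could not be told, and it was not repeated. Versions are not given in the sources used here. Array medians ran from 4.55 to 4.83, and precision is limited by how many arrays there are. The residuals of the 3 groups had rank 6.

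Of 41345 probe sets, 23521 name 1 gene in the platform annotation, and 1820 that name several and 16004 without a name were left out. Of those kept, 23328 matched RefSeq by identifier. For genes with several probe sets (1082), that with the highest mean was used, which gave 22180 genes. Each measured member had 1 such probe set. A further Zmat3 probe set that also names 4930429B21Rik was left out.

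A group-means model on all 9 arrays was fitted with limma 3.58.1 in R 4.3.3, and p-values were adjusted by Benjamini-Hochberg over all genes (threshold 0.05). No values were scaled or filtered. Lists were described by counts and medians. The fit was tested on simulated data. The replicate numbers did not pair the samples.

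The members, the role lists and the marker lists were chosen with earlier results of these data known. From each role list, the 3 genes with the largest difference between P3 GBM and OPC lesion in size were named, with any gene called. The neighbours of a member were taken for the member with the largest SD. Where nothing else is said, p-values measure the spread between 3 lesions a group, described as biological replicates. Alternatives were aligned array medians, no genes among the lowest 25%, the mean of probe sets, a replicate block, a variance prior with a trend, fits of the compared groups alone, the methods' t-test and leaving out each array.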

Additional observations from a re-analysis of the deposited data

How the results depend on the processing

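No core target was called under any alternative, and 889 of 912 single-gene values under the alternatives kept their direction and their side of the threshold, while 23 turned. Aligning the array medians moved the median of all genes by -0.123 in P3 GBM against OPC lesion, -0.066 in P3 high DOX and -0.180 in P3 low DOX against OPC lesion and 0.114 between the doses, so the share of genes below 0 became 75.9% in P3 GBM against OPC lesion (51.2% as deposited), 66.4% in P3 high DOX (51.8%), 76.0% in P3 low DOX (50.7%) and 31.7% between the doses (50.0%). In P3 GBM against OPC lesion the median of all genes was -0.005 as deposited and -0.129 aligned. The alignment thus gave the analysed genes an offset rather than removing one, and the core values under it carry that offset. Under the alignment the 9 core targets had medians of -0.55, -0.54, -0.78 and 0.10, in the order of comparisons above. Bbc3 in P3 high DOX (-0.02), Phlda3 in P3 low DOX (-0.01) and Eda2r between the doses (0.10) turned.

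Leaving out each array in turn, the core targets below 0 numbered 7 to 9 in P3 GBM, 8 to 9 in P3 high DOX and 6 to 9 in P3 low DOX against OPC lesion, and 4 to 5 between the doses. Against OPC lesion in P3 GBM, Trp53inp1 ranged from -0.55 to 0.00, Phlda3 from -0.28 to 0.06, Tnfrsf10b from -0.93 to 0.26, Trp53cor1 from -0.80 to 0.01 and Abhd4 from -0.68 to 0.02. In P3 high DOX, Bbc3 ranged from -0.01 to 0.14 and Zmat3 from -0.35 to 0.02. In P3 low DOX, Mdm2 ranged from -0.54 to 0.17, Trp53inp1 from -0.34 to 0.21 and Phlda3 from -0.02 to 0.41. Between the doses, Mdm2 ranged from -0.61 to 0.10 and Eda2r from -0.39 to 0.39. All genes called ranged from 0 to 4 in P3 low DOX against OPC lesion (4 without OPC lesion replicate 2, and 1 when P3 low DOX replicate 1 or replicate 3 was left out) and from 0 to 1 between the doses (1 without each of the same arrays), none of them a core target. The cause was not tested.

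The core targets lower in P3 GBM at an unadjusted p under 0.05 numbered 3 with the values as deposited (2.14% of all genes), 1 to 3 when an array was left out (0.978% to 3.44%), 4 with aligned medians (6.53%) and 1 by the methods' t-test (1.74%). Ccng1 was among them in each of these except without OPC lesion replicate 2, and Zmat3 was higher at the high dose in every setting, joined by Bbc3 without P3 low DOX replicate 1. With the replicate number as a block, Cdkn1a differed by -1.02 (SE 0.481, limma adjusted p = 0.999), and no call changed. Same-numbered arrays had residual correlations of -0.478 to 0.265, so the numbers were not treated as pairs. The methods' t-test called 0 genes after adjustment, against 760 genes at its unadjusted threshold in P3 GBM against OPC lesion.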

Other observations

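Of the 12 measured p53 family members and upstream regulators, 6 were below and 6 above 0 in P3 GBM against OPC lesion, with a median of 0.04. Hipk2, a kinase that phosphorylates p53, had 10.24, 9.74 and 10.66 in P3 high DOX, 10.53, 10.68 and 10.31 in P3 low DOX, and 9.34, 10.02 and 9.90 in OPC lesions. Only P3 high DOX replicate 2 lay within the OPC lesion range, and the difference was 0.61 (SE 0.231, limma unadjusted p = 0.0305, adjusted p = 0.974). Cdkn2a, the locus of p16 and of p19ARF, the inhibitor of Mdm2, had 7.33, 7.32 and 9.38 in P3 high DOX, 8.51, 8.53 and 9.25 in P3 low DOX, and 7.45, 7.16 and 9.09 in OPC lesions. Each group held a high array, and the difference was 0.49 (SE 0.588). Chek1, a checkpoint kinase that proliferating cells express, had 5.76, 5.31 and 5.83 in P3 high DOX, 5.62, 5.80 and 5.64 in P3 low DOX, and 5.55, 6.57 and 6.54 in OPC lesions. Its difference was -0.56 (SE 0.245), carried by OPC lesion replicates 2 and 3.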
